A study of Drosophila melanogaster with 6 samples.

Results

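The 3 genes mesh, Ssk (Snakeskin) and Tsp2A encode the membrane proteins that mark the smooth septate junction of the fruit fly Drosophila melanogaster. They were taken from the platform annotation by name, out of 10844 genes measured on 6 Affymetrix arrays of the oviduct, the duct that carries the egg from the ovary to the uterus. They are covered by 4 of the 13966 probe sets, 2 for mesh and 1 each for Ssk and Tsp2A. For mesh the brighter one, by mean log2 intensity, stands for the gene. Of the arrays, 3 held RNA of oviducts from mated females dissected 3 h after mating ended, and 3 held RNA of oviducts from unmated females dissected in parallel. All females were 3 days old, strain and genotype are not given in the labels, and the tracts of 400 to 500 females were pooled. Arrays of a group are called biological repeats, but whether each had its own pool is not stated, so the spread between them may leave out variation between pools.

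Septate junctions are the belts that seal the space between neighbouring cells in insect epithelia, the role that tight junctions have in vertebrates. They come in a pleated form, found in epithelia of ectodermal origin such as epidermis, trachea and hindgut, and a smooth form, found in the endodermal midgut and in the Malpighian tubules. In the midgut, Mesh, a large protein that crosses the membrane once, Ssk, a small protein with several membrane spans, and Tsp2A, a tetraspanin, need each other to reach the junction, and loss of any of them opens the barrier of the gut and drives intestinal stem cells to divide. The comparison asked whether their levels in the oviduct differed after mating.

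The mesh probe set had a lower mean after mating, with a log2 difference (mated minus unmated) of -0.73 that did not pass the test, while Ssk and Tsp2A had differences of 0.18 and 0.01. All 3 genes gave intensities above the array median on every array. Within the unmated group, each member was about as bright or brighter on the array with the least signal from midgut digestive enzymes than on the arrays with the most. Within the mated group it was the other way, with each member dimmest on mated array 3, which had the least such signal. Which tissue the signal of the members came from was not tested. Over all probe sets, limma, which fits every probe set and shares information on their spread, called 0 higher and 0 lower in mated oviducts at an adjusted p of 0.05 (0.00% in each direction), so no gene named here passed. At an unadjusted p of 0.05 there were 145 higher and 776 lower probe sets, 1.04% and 5.56% of those tested.

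The arrays were not alike within the unmated group. The median intensity was 66.5, 66.1 and 60.6 on mated arrays 1, 2 and 3, and 86.2, 86.0 and 62.4 on unmated arrays 1, 2 and 3. The mean of the 3 probe sets for 18S rRNA was 169 to 464 on the mated arrays and 224 on unmated array 3, with 1005 and 806 on unmated arrays 1 and 2. The median log2 difference of all genes, mated minus unmated, was -0.16. It was 0.01 without unmated arrays 1 and 2 and 0.11 after median centring. The fit without unmated arrays 1 and 2, written below as against unmated array 3 alone, sets 3 mated arrays against 1 and takes the spread from the mated arrays alone.

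Mesh is the large junction protein that crosses the membrane once. The brighter of its probe sets had intensities of 139.6, 182.8 and 117.0 on mated arrays 1, 2 and 3, against 266.7, 195.0 and 263.4 on unmated arrays 1, 2 and 3. All mated values lay below all unmated ones, and mated array 2 and unmated array 2 came closest. The means were 146 ± 33.4 in mated and 242 ± 40.5 in unmated oviducts (SD, n = 3 each). The log2 difference was -0.73 ± 0.34 (SE), a mated level of 0.60 times the unmated one with a 95% interval of 0.35 to 1.05. The unadjusted p was 0.0669 and the adjusted p over all probe sets was 0.762 in limma.

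Groups that do not overlap in this direction were common on these arrays. Of all probe sets, 1199 had all 3 mated values below all 3 unmated ones, 8.59% of those tested, and 326 had them above, 2.33%. The separation of mesh also depended on the scaling of the arrays. After median centring the log2 values of mesh were 7.21, 7.61 and 7.09 on the mated arrays and 7.77, 7.32 and 8.22 on the unmated ones, so that mated array 2 lay above unmated array 2. The groups overlapped in the same way after quantile normalization and after cyclic loess. The share of probe sets with lower mated values without overlap was smaller under these scalings too, at 5.28% with median centring, 5.98% with quantile normalization and 5.75% with cyclic loess. The log2 difference itself was -0.47 with median centring, under which the median of all genes stood at 0.11. Relative to the median of all genes it was -0.58 with both the deposited scaling and median centring, and -0.88 without unmated arrays 1 and 2.

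The other mesh probe set was dim. It had intensities of 14.3, 9.6 and 2.5 on the mated arrays, against 15.5, 8.8 and 5.3 on the unmated arrays. All of these lay below the lower quartile of their own array, which ran from 14.2 to 23.9 over the arrays, and the groups overlapped. Its log2 difference was -0.36 ± 0.72 (SE), with an adjusted p of 0.962 in limma, and turned to 0.40 against unmated array 3 alone. With both probe sets averaged, the value for mesh was -0.55.

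Ssk is a small membrane protein that forms a complex with Mesh at the junction. Its probe set had intensities of 728.6, 804.4 and 596.7 on mated arrays 1, 2 and 3, against 540.3, 567.9 and 785.8 on unmated arrays 1, 2 and 3. It lay above the upper quartile on all 6 arrays. The groups overlapped, since unmated array 3 read higher than mated arrays 1 and 3. The means were 709.9 ± 105 in mated and 631 ± 134 in unmated oviducts (SD, n = 3 each), and the log2 difference was 0.18 ± 0.33 (SE). The ratio of mated to unmated was 1.13, with a 95% interval of 0.66 to 1.94, so that neither a modest fall nor a near doubling lay outside it. The adjusted p was 0.959 in limma. Without unmated arrays 1 and 2 the direction turned, to a log2 difference of -0.16. Leaving out unmated array 3 raised it to 0.35, and leaving out mated array 3 to 0.30. It was 0.08 when either mated array 2 or unmated array 1 was left out, and 0.11 when unmated array 2 was.

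Tsp2A belongs to the tetraspanins, small proteins that cross the membrane several times and gather other membrane proteins around them. Its probe set had intensities of 164.2, 153.5 and 111.5 on mated arrays 1, 2 and 3, against 131.0, 141.5 and 149.7 on unmated arrays 1, 2 and 3. The mated arrays held both the highest and the lowest value, so the unmated values lay inside the mated range. The means were 143 ± 27.9 in mated and 141 ± 9.37 in unmated oviducts (SD, n = 3 each). The log2 difference was 0.01 ± 0.32 (SE), a ratio of 1.0 with a 95% interval of 0.60 to 1.69, and the adjusted p was 0.998 in limma. Its sign was not settled. Leaving out mated array 1 gave -0.10, leaving out mated array 2 gave -0.05, and leaving out unmated array 1 gave -0.04. It was -0.09 when unmated arrays 1 and 2 were both left out, 0.18 when mated array 3 was, and 0.05 when unmated array 3 was.

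**Figure D1:**
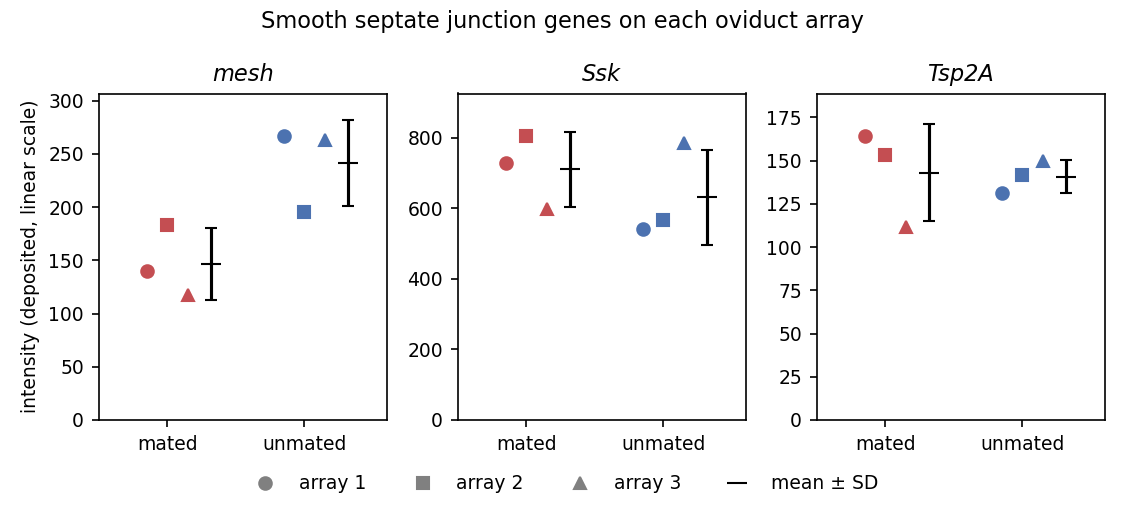
Deposited intensity (linear scale) of mesh, Ssk and Tsp2A on each array, mated left of unmated in each panel, with the symbol giving the array number and the black bar the mean ± SD (n = 3). The 3 mated values of mesh, 117.0 to 182.8, lie below the unmated values of 195.0 to 266.7, while the groups overlap for Ssk and Tsp2A.

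A further smooth septate junction protein is encoded by hoka, a small membrane protein that works with the other members in the midgut. Its probe set had intensities of 5.6, 9.1 and 11.8 on the mated arrays, against 13.6, 22.8 and 5.4 on the unmated arrays. Every value lay below the lower quartile of its array, and the groups overlapped. The log2 difference was -0.49 ± 0.59 (SE), with an adjusted p of 0.937 in limma, and turned to 0.64 against unmated array 3 alone. At such intensities the size of a difference is not exact.

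**Figure D2:**
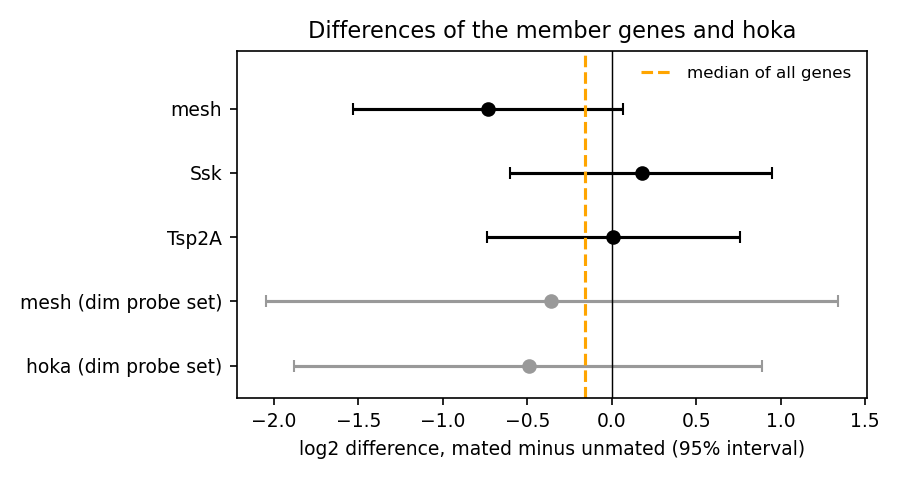
Log2 difference, mated minus unmated, with its 95% interval from limma, for the brighter probe sets of mesh, Ssk and Tsp2A (black) and for the dim probe sets of mesh and hoka (grey). Every interval includes 0, the one for mesh reaching from -1.53 to 0.07, and the dashed line marks the median of all genes at -0.16.

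Whether the members changed unequally was asked within each array, where a scaling factor common to all probe sets cancels. The log2 value of mesh minus that of Ssk was -2.38, -2.14 and -2.35 on the mated arrays, against -1.02, -1.54 and -1.58 on the unmated arrays. The mated values lay below all unmated ones, and the difference between the group means was -0.91. The same subtraction for mesh and Tsp2A gave -0.23, 0.25 and 0.07 on the mated arrays, against 1.03, 0.46 and 0.82 on the unmated arrays. These groups did not overlap either, with a difference of -0.74. An exact two-sided permutation test over the 6 arrays gave p = 0.1 for each of these 2 pairs, the smallest p that 3 arrays against 3 can give, and 0.15 after Benjamini-Hochberg adjustment over the 3 pairs.

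This separation has to be read against all genes. When every other gene was set against Ssk in this way, 9.20% of genes had all mated values below all unmated ones. Set against Tsp2A, 7.92% did. The lower reading of mesh relative to its partners was therefore of a kind shared by many genes on these arrays. Without unmated arrays 1 and 2 the difference was -0.71 for mesh and Ssk and -0.79 for mesh and Tsp2A.

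The remaining pair, Ssk and Tsp2A, did not separate the groups. The log2 value of Ssk minus that of Tsp2A was 2.15, 2.39 and 2.42 on the mated arrays, against 2.04, 2.00 and 2.39 on the unmated arrays. The group means differed by 0.17, with overlapping values and an exact permutation p of 0.3, also 0.3 after adjustment. The sign turned without unmated arrays 1 and 2, where the difference was -0.07, and with quantile normalization, where it was -0.02. Leaving out 1 array at a time gave 0.10 to 0.30, the highest when unmated array 3 was left out and the lowest when unmated array 2 was.

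**Figure D3:**
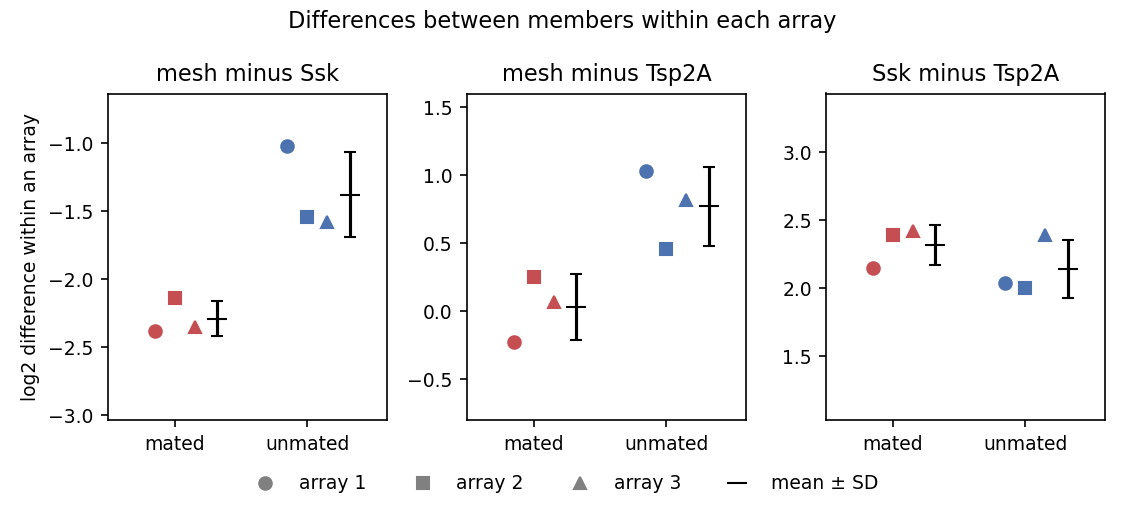
Log2 value of the first gene minus that of the second on the same array, mated left of unmated, for the 3 pairs of members, with the symbol giving the array number and the black bar the mean ± SD (n = 3); each panel spans the same height on the log2 scale. The mated values of mesh minus Ssk lie between -2.38 and -2.14, below the unmated values of -1.58 to -1.02, and those of Ssk minus Tsp2A overlap.

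Over the 6 arrays the profiles of Ssk and Tsp2A were also the closest pair among the members. With each gene's log2 values centred on their mean, the root mean square difference between the 2 profiles was 0.173, against 0.428 between mesh and Tsp2A and 0.496 between mesh and Ssk. Among 5419 other genes brighter than the median, those nearest to Ssk were Ufd4, a ubiquitin ligase, Mpi, mannose phosphate isomerase, and CG2736, at 0.054, 0.062 and 0.067. Nearest to Tsp2A were Cog6, a subunit of the Golgi tethering complex, CG42724, and sav, the scaffold of the Hippo kinase pathway, at 0.057, 0.075 and 0.081. Nearest to mesh were CG11170, CG10562 and CG13833, at 0.107, 0.115 and 0.129. With so few arrays such closeness is common: 324 genes lay within 0.2 of Ssk and 363 within 0.2 of Tsp2A, while 26 lay within 0.2 of mesh.

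Because the smooth junction belongs to gut and tubule, markers of those tissues were read on the same arrays. In bulk tissue, fewer cells of a type and less RNA per cell cannot be told apart. Of 44 listed digestive enzyme and midgut genes, 38 were measured. Their summed intensity was 2192 to 3678 on the mated arrays, against 9463, 9044 and 3467 on unmated arrays 1, 2 and 3. Unmated array 3 thus lay within the mated range. Of the 38 genes, 35 had a difference below the median of all genes, and 0 passed the adjusted threshold. The list's median log2 difference was -0.93, against -0.16 over all genes. An unadjusted p under 0.05 was found for 0 higher and 11 lower, where 0.987% and 5.25% of all genes had it. The 4 with the smallest p were the maltases Mal-A1 and Mal-A3, the trypsin betaTry and the alpha-mannosidase LManVI. Their log2 differences were -2.26, -1.18, -3.12 and -1.30 with all arrays. Against unmated array 3 alone they were -0.83, -0.75, -0.26 and -0.45. The probe sets of Mal-A3 and LManVI were dim, below the lower quartile on 5 and 3 arrays.

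The trypsin gene betaTry had intensities of 37.9, 32.9 and 23.1 on the mated arrays, against 537.1, 962.7 and 36.6 on the unmated arrays. Mal-A1, which cleaves maltose, had 85.9, 68.1 and 17.2 on the mated arrays, against 402.0, 333.7 and 82.8 on the unmated arrays. Both were high on unmated arrays 1 and 2, and unmated array 3 lay inside the mated range. Trypsin genes have close copies, so the signal of betaTry may be shared with them. For the members, the mean log2 value on unmated arrays 1 and 2 minus that on unmated array 3 was -0.21 for mesh, -0.50 for Ssk and -0.14 for Tsp2A. The median of this quantity was 1.38 over the midgut list, 0.09 over the Malpighian tubule list and 0.31 over all genes. The dim hoka probe set had 1.71. On mated arrays 1, 2 and 3 the summed intensity of the midgut list was 3678, 3320 and 2192. Among these arrays mesh, Ssk and Tsp2A were also lowest on mated array 3, at 117.0, 596.7 and 111.5. Without unmated arrays 1 and 2, the median difference of the midgut list, mated minus unmated, was -0.16, and that of mesh was -0.87. Both values rest on 1 unmated array, and a link between them was not tested. Leaving out unmated array 3 moved the midgut median to -1.58.

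The endodermal transcription factors were dim or uneven between arrays. GATAe, the GATA factor that maintains midgut identity, had intensities of 6.2, 5.2 and 3.7 on the mated arrays, against 10.5, 13.5 and 5.4 on the unmated arrays, below the lower quartile of each array. Of the 5 listed factors 4 were measured. An unadjusted p under 0.05 in limma was found for 0, where 0.987% of all genes were higher and 5.25% lower. The other named factors were GATAd, srp, the GATA factor of blood and fat body, and nub, a POU factor of enterocytes, with log2 differences of 0.94, -0.41 and 0.38. GATAd and srp lay above the array median on 4 of 6 arrays. Against unmated array 3 alone the differences were 2.09 for GATAd, 0.53 for srp, 0.89 for nub and -0.13 for GATAe, which had -0.89 with all arrays. The list's median was -0.02 with all arrays and 0.71 against unmated array 3 alone. Leaving out 1 array gave medians of -0.46 (mated array 2) to 0.23 (mated array 1), so it has no settled direction. Their summed intensity was 142 to 296 on the mated arrays and 95.9 to 308 on the unmated arrays.

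Of 12 listed Malpighian tubule genes, 8 were measured. An unadjusted p under 0.05 in limma was found for 0, where 0.987% of all genes were higher and 5.25% lower. The list's median log2 difference was -0.20. The median was 0.02 against unmated array 3 alone, and leaving out 1 array gave -0.35 (mated array 2) to -0.09 (mated array 3). Their summed intensity was 8040 to 14053 on the mated arrays and 7674 to 10095 on the unmated arrays. Most of it came from Drip, a water channel of many tissues, with 11294.7, 5102.8 and 9752.1 on the mated arrays, against 4238.9, 5510.0 and 6965.4 on the unmated arrays. The chloride channel gene ClC-a had 2126.5, 2405.1 and 1778.7 on the mated arrays, against 2489.7, 2478.4 and 2620.8 on the unmated arrays. For ClC-a the mated values lay below all unmated ones, as they did for 8.43% of all genes. The potassium channel gene Irk3, a dim probe set, was the other of 2 among the 8 without overlap, at 10.6, 14.6 and 8.8 on the mated arrays, against 20.8, 17.2 and 17.6 on the unmated arrays. The zinc transporter ZnT35C, which loads tubule storage granules, had 147.4, 36.8 and 103.9 on the mated arrays, against 420.3, 308.1 and 80.6 on the unmated arrays. Its log2 difference was -1.40 with all arrays and 0.04 against unmated array 3 alone, while that of Drip was 0.60 and 0.24.

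Ovary and eggshell markers, the other contents a dissected tract can carry, were also brightest on unmated arrays 1 and 2. Of 28 listed genes 24 were measured, and 20 of these lay below the median of all genes. An entry listed as nos, for nanos, was matched through a synonym to Nos, the symbol of nitric oxide synthase. It is counted among the 24, with a log2 difference of 0.14, and is not among the 20. Their summed intensity was 2591 to 5991 on the mated arrays, against 14720, 14595 and 3873 on unmated arrays 1, 2 and 3. The chorion gene Cp16 had 25.3, 24.8 and 20.2 on the mated arrays, against 644.9, 445.2 and 23.3 on the unmated arrays. The list's median log2 difference was -1.07, 0.02 without unmated arrays 1 and 2, and -1.66 when unmated array 3 was left out. In this list, 0 genes were higher and 8 lower at an unadjusted p under 0.05 in limma, where 0.987% and 5.25% of all genes were. The genes with the smallest p were yellow-g2, Cp38 and Cp18, followed by Cp16. Their log2 differences were -2.06, -2.69, -1.14 and -3.01 with all arrays. Against unmated array 3 alone they were -1.71, -0.62, -0.52 and 0.0.

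For the tissue itself, muscle genes and the octopamine receptor gene Octbeta2R were read, and the muscle genes are not particular to the oviduct. Of 11 listed genes 7 were measured, and none of these lay below the lower quartile on every array. All 7 had a difference above the median of all genes. The list's median log2 difference was 0.09, and -0.10 without unmated arrays 1 and 2. The troponin T gene up had 10450.2, 11738.3 and 8806.5 on the mated arrays, against 6814.1, 4596.2 and 11322.7 on the unmated arrays. The receptor gene Octbeta2R, through which octopamine acts on the oviduct during ovulation, had 653.0, 242.9 and 378.6 on the mated arrays, against 318.0, 245.9 and 405.3 on the unmated arrays. The muscle protein genes Mp20 and sls had log2 differences of 0.09 and 0.72, and up and Octbeta2R had 0.54 and 0.31. Against unmated array 3 alone these were -0.10 for Mp20, 0.33 for sls, -0.14 for up and -0.05 for Octbeta2R. The part of these other tissues in the values of mesh, Ssk and Tsp2A was not tested.

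**Figure D4:**
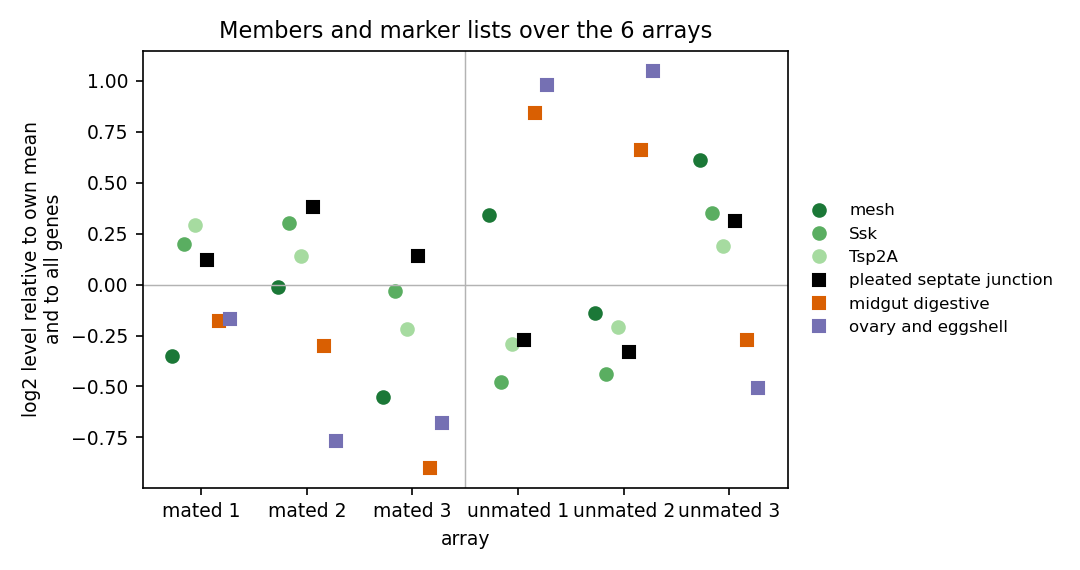
Log2 level on each array, relative to the gene's own mean over the 6 arrays and to the median of all genes, for mesh, Ssk and Tsp2A (green circles) and as the median of the pleated septate junction, midgut and ovary lists (squares), with mated arrays left of unmated arrays. The midgut list stands at 0.84 and 0.66 on unmated arrays 1 and 2 and at -0.27 on unmated array 3, while Ssk stands at -0.48, -0.44 and 0.35.

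The pleated junction of ectodermal epithelia was measured through 14 of 16 listed genes. Of these, 11 had a difference above the median of all genes and 3 below, and the median log2 difference was 0.07, against -0.16 over all genes. Without unmated arrays 1 and 2 it was -0.07, and leaving out 1 array gave 0.03 (mated array 2) to 0.35 (mated array 1). None had an unadjusted p under 0.05 in limma, where 0.987% of all genes were higher and 5.25% lower. No gene's groups were free of overlap, against 2.45% of all genes higher and 8.43% lower. Among 14 genes, counts of 0 lie near these shares. The 4 with the smallest p all read higher, with adjusted p from 0.826 to 0.915 in limma.

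Among them bou and crok, both small Ly6 proteins needed to assemble the junction, had log2 differences of 0.61 ± 0.39 and 0.71 ± 0.54 (SE), which turned to -0.07 and -0.09 against unmated array 3 alone. The gene sinu, which encodes a claudin-like protein, had intensities of 252.3, 239.8 and 231.0 on the mated arrays, against 165.6, 128.3 and 266.1 on the unmated arrays. Nrg, the cell adhesion protein neuroglian, had 3678.2, 4797.1 and 3591.6 on the mated arrays, against 3068.9, 2707.7 and 3888.7 on the unmated arrays. In both, unmated array 3 reached into or above the mated range, as it did for Ssk. The log2 differences of sinu and Nrg were 0.44 and 0.32 with all arrays, and -0.14 and 0.04 against unmated array 3 alone. The median over the pleated list of unmated arrays 1 and 2 minus unmated array 3 was -0.47 on the log2 scale, near the -0.50 of Ssk. It was -0.54 over the list of muscle genes and Octbeta2R, so this nearness is not particular to junction genes.

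The 3 tricellular junction genes Gli, bark and M6, which seal the corners where cells meet, had log2 differences of -0.58, 0.44 and -0.12. All 3 turned sign against unmated array 3 alone, to 0.30, -0.84 and 1.65. Their summed intensity was 538 to 1612 on the mated arrays and 575 to 2031 on the unmated arrays. Of 5 listed genes of basolateral polarity, 4 were measured. The FERM protein gene yrt had a log2 difference of -0.52, and dlg1, l(2)gl and scrib, the scaffolds of the Scribble module, had -0.30, -0.38 and 0.06. Against unmated array 3 alone yrt had -0.36, dlg1 had -0.79, l(2)gl turned to 0.98 and scrib had 0.34. The dlg1 probe set was dim, below the lower quartile on 2 arrays. None of these 7 genes had an unadjusted p under 0.05 in limma, where 0.987% of all genes were higher and 5.25% lower. Their groups overlapped, while 2.45% of all genes were higher and 8.43% lower without overlap.

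As a tetraspanin, Tsp2A was set beside 30 measured relatives of 33 listed. Of these relatives, 0 had an unadjusted p under 0.05 in limma, where 0.987% of all genes were higher and 5.25% lower. Groups without overlap were also found for 0, against 2.45% of all genes higher and 8.43% lower. The list's median log2 difference was -0.05. The sign of this median was not settled: leaving out 1 array gave -0.07 to 0.10, with 0.10 when mated array 3 was left out and 0.02 when unmated array 1 was. The 4 with the smallest p were Tsp42El, Tsp33B, Tsp3A and Tsp74F, with log2 differences of 0.84, -1.06, -0.86 and 0.50. Against unmated array 3 alone they had 1.10, -1.38, -0.92 and 0.27. The Tsp33B probe set was dim, below the lower quartile on 3 arrays. Tsp42El had 2582.9, 2315.2 and 3936.0 on the mated arrays, against 1315.3, 2358.4 and 1336.0 on the unmated arrays. Tsp2A had 0.01.

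**Figure D5:**
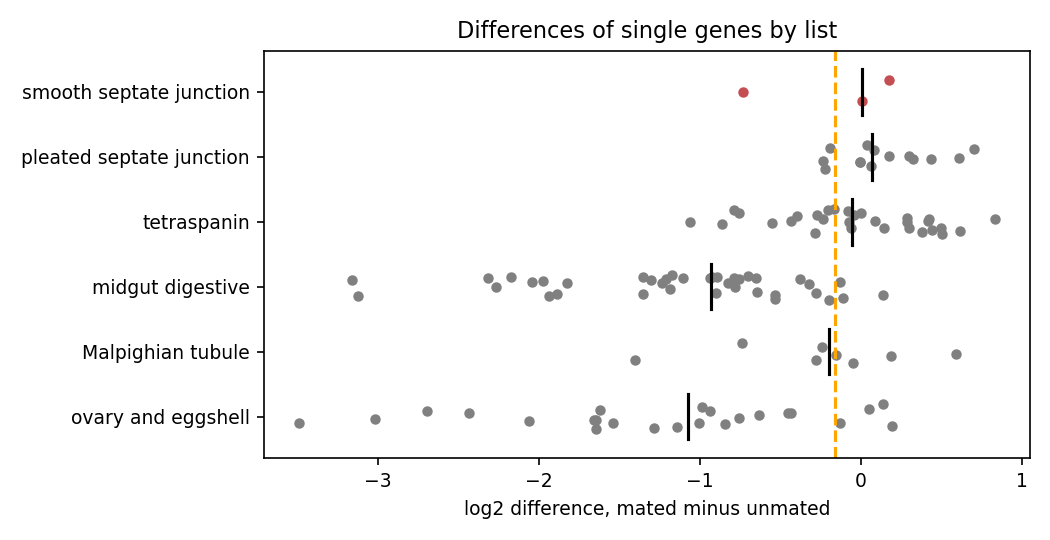
Log2 difference, mated minus unmated, of each measured gene (points, spread vertically for legibility), by list, with the list's median as a black bar and the median of all genes, -0.16, as a dashed line. The smooth septate junction genes mesh, Ssk and Tsp2A stand at -0.73, 0.18 and 0.01, while the midgut list centres on -0.93 and the pleated list on 0.07.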

How the data were processed

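The authors deposited linear intensities, with 1 value for each probe set on each array. RMA is named, with no version, per the submitters' processing notes; any further step is not given in the sources used here. These intensities lack the log2 scale and shared quartiles of RMA, so the authors' summary and scaling stay unknown. Detection calls were not used here.

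Of 14010 probe sets, 44 controls were left out. The platform annotation names 1 gene for 12443, several for 327 and none for 1196 of the rest; symbols were updated through RefSeq genes of Release 6 plus ISO1 MT. Log2 intensities, without offset or filter, were fitted with limma 3.58.1 in R 4.3.3 (lmFit, eBayes, two-sided, Benjamini-Hochberg over 13966 probe sets), after tests on simulated data. Named genes were the members, hoka, up to 4 genes per list with the smallest p, and the 3 nearest profiles per member. Members and lists were chosen with earlier results of these data known. Alternatives covered scaling, an offset of 32, a dim filter, variance models, array weights, the replicate number as block, and left-out arrays. The number of arrays limits the precision.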

Additional observations from a re-analysis of the deposited data

How the results depend on the processing

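Over 16 alternatives, limma called 0 probe sets in each, with the lowest adjusted p at 0.184. Leaving aside the fit without unmated arrays 1 and 2, the unadjusted counts ran from 79 to 349 higher and from 245 to 1728 lower. Both low ends came from testing only probe sets above the median level, so from fewer probe sets. Quantile normalization gave 327 higher and 420 lower, median centring gave 325 and 447, and cyclic loess gave 349 and 401. The difference of mesh kept its sign in all 16, from -0.90 to -0.47. Leaving aside the fit without unmated arrays 1 and 2, its adjusted p in limma was 0.348 or more. The unadjusted p of mesh lay on both sides of 0.05. It ran from 0.0227 with the offset of 32, where the adjusted p was 0.857, to 0.284 with both probe sets averaged. With the replicate number as a block the difference of mesh was -0.73, with Ssk at 0.18 and Tsp2A at 0.01. That limma fit made 0 calls, with adjusted p of 0.813, 0.989 and 0.999 for mesh, Ssk and Tsp2A. Same-numbered arrays deviated from their group means with correlations of -0.177, 0.025 and -0.086. With so few arrays, these values cannot settle whether equal numbers mark a pairing. Leaving out 1 array gave -0.90 to -0.58 for mesh, 0.08 to 0.35 for Ssk and -0.10 to 0.18 for Tsp2A, which turned sign without mated replicate 1 (-0.10), mated replicate 2 (-0.05) and unmated replicate 1 (-0.04). It gave -1.01 to -0.73 for mesh minus Ssk, -0.89 to -0.61 for mesh minus Tsp2A and 0.10 to 0.30 for Ssk minus Tsp2A. Without unmated arrays 1 and 2, Ssk turned to -0.16, Tsp2A to -0.09 and Ssk minus Tsp2A to -0.07, and quantile normalization gave -0.02 for Ssk minus Tsp2A; the cause was not tested. Ssk and Tsp2A were largest with median centring, at 0.44 and 0.27. Intensities below the lower quartile of an array, as for hoka and the dim mesh probe set, limit what can be read from a difference.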
